A study of Mus musculus with 6 samples.

Results

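The transcripts of 10 genes of the vesicle machinery, tetraspanins and vesicle biogenesis genes, were followed in NIH3T3 cells: Cd9, Cd63, Cd81, Cd82, Cd151, Flot1, Pdcd6ip, Tsg101, Rab27a and Rab35. They were chosen by symbol, with earlier results of these data known, and make up 10 of the 20475 genes in the deposited expression table. All 10 were found and all 10 passed the filter on low values.

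NIH3T3 is a mouse fibroblast line. The labels give passage 5, growth in DMEM with fetal bovine serum, and RNA taken 48 h after treatment. One group received extracellular vesicles (EVs) in PBS from MDA-MB-231, human breast cancer cells of the triple-negative type (2 libraries). Another received the same stated number of EVs in PBS from MCF10A, human breast epithelial cells that form no tumours (2 libraries). The control group received PBS alone (2 libraries). No genetic change is stated for any group. The labels do not say that replicates were separate cultures, and p-values therefore cover no more than the spread among these samples, which may be technical. Levels are in normalised reads, that is, reads adjusted by the authors to a common library size, and describe RNA of the recipient cells, not proteins of the added EVs.

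EVs leave a cell by shedding from its surface or by fusion of a multivesicular endosome with the plasma membrane. Tetraspanins are small membrane proteins that gather partner proteins into domains, and several are widely used as EV markers. ESCRT proteins, with the adaptor ALIX, bud vesicles into endosomes, flotillins scaffold membrane domains, and RAB GTPases steer endosomes to the surface.

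Windows of 250 bases before the transcription start are shown for 3 tetraspanin genes that were lower with EVs from either donor, Cd9, Cd81 and Cd82, and for Cd63, which was not lower with both. These 4 were picked by how they changed. The sequences are RefSeq's (GRCm38.p6), 5′ to 3′ on the gene's strand, and capitals mark GC boxes. They stem from chr6:125494761-125495010 (minus strand) for Cd9, chr7:143052500-143052749 (plus) for Cd81, chr2:93462951-93463200 (minus) for Cd82, the most upstream of 4 start sites, and chr10:128909095-128909344 (plus) for Cd63.
Cd9: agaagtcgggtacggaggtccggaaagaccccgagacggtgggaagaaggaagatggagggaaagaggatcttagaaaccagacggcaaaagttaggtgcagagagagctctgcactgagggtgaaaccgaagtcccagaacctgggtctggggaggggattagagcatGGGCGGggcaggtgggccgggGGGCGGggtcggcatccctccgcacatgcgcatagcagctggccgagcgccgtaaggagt
Cd81: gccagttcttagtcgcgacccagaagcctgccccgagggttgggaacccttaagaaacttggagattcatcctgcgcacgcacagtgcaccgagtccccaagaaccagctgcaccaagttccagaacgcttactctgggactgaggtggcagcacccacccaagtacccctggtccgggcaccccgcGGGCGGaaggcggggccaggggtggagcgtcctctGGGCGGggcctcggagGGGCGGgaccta
Cd82: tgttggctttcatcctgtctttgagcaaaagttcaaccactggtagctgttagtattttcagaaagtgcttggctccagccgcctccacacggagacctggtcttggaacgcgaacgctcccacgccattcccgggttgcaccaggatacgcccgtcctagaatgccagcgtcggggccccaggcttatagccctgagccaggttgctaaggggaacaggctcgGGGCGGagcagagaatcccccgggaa
Cd63: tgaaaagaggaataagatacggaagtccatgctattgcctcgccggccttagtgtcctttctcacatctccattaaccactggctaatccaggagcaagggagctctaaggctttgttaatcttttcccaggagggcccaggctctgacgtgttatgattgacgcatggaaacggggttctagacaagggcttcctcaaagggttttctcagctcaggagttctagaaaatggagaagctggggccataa

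The GC box was searched as GGGCGG on both strands, and 32.7% of 32851 such windows in the mouse genome held it. Cd9 had 2, at 81 and 60 bases before the start, Cd81 had 3, at 63, 28 and 12 bases, Cd82 had 1, at 26 bases, and Cd63 had 0. None of the 4 windows held TGANTCA (the AP-1 site, in 6.75% of windows), TGACGTCA (the CRE, in 1.55%), CACGTG (the E-box, in 6.02%), CCAAT (in 33.8%) or TATAAA (in 12.4%). The windows were 61.6%, 65.6%, 58.4% and 48.8% G plus C for Cd9, Cd81, Cd82 and Cd63, against a median of 52.4%. They held 16, 16, 14 and 6 CpG pairs, against a median of 6. Of the 10 members, 9 had such a window, and Flot1 was not matched. Among the others, Rab35, which was higher with MDA-MB-231 EVs, held 2 GC boxes, as did the upstream start site of Cd151, which was not called. Tsg101, which was lower with MDA-MB-231 EVs, and Pdcd6ip held 0, and the upstream start site of Rab27a held 1. A match describes letters and not a binding site. Of the other start sites of Cd82, site 2 also held 1 GC box, at 68 bases, and sites 3 and 4 held 0. Site 3 held 1 CCAAT, at 67 bases.

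The libraries held 22451173 to 29315530 gene reads, and 14553 to 14856 genes had a read. Replicates differed by more than counting noise, with a chi-square of 1.65 to 2.29 per degree of freedom. All 10 fibroblast markers had reads, led by Vim, Col1a2 and Fn1, and summed to 381700 to 389600 normalised reads with MDA-MB-231 EVs, 386800 to 397200 with MCF10A EVs and 444100 to 444600 with PBS. Of 10 epithelial markers, Epcam, Krt5, Krt18 and Esrp1 had 0 reads, and the sums, mostly Krt8, were 29.5 to 37.2 with MDA-MB-231 EVs, 35.4 to 40.7 with MCF10A EVs and 45.7 to 49.6 with PBS. Of 9 leukocyte markers, Cd3e and Emr1 had 0 reads, and the sums, mostly Cd14, were 992.9 to 1059 with MDA-MB-231 EVs, 1780 to 1833 with MCF10A EVs and 3036 to 3143 with PBS. Of 10 endothelial markers, Emcn and Erg had 0 reads, and the sums, mostly Cdh5, were 158.2 to 194.9 with MDA-MB-231 EVs, 296.8 to 345.2 with MCF10A EVs and 355.8 to 363.6 with PBS. All 4 sums were lower in each of the 4 EV libraries than in either PBS library, as were Cd9, Cd81 and Cd82, and their part in those results was not tested. Single markers differed from their sums: Col3a1 was called higher with both EVs, at 5449 ± 21.4 with MDA-MB-231 EVs and 6885 ± 4.69 with MCF10A EVs, against 3968 ± 7.22 with PBS. Cdh1 and Esam, at under 10 normalised reads, were also called higher with both, and Krt8 was not called in either. In bulk RNA, fewer cells of a type and less RNA per cell cannot be told apart.

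The first question is which of these transcripts differ after EVs of cancer cells. Of the 10 transcripts, 5 fell with MDA-MB-231 EVs against PBS (Cd9, Cd63, Cd81, Cd82 and Tsg101), 2 rose (Flot1 and Rab35) and 3 were not called. Of all 15025 genes tested 34.8% were called by limma at an adjusted p under 0.05, 16.9% lower and 17.9% higher. That share depends on level: of the 10104 genes averaging 5 or more CPM, 2486 were called lower and 2788 higher. The share of called genes that were higher was 51.4%, and 67.8% when reads were scaled by library totals. The median log2 change of the members was -0.14, against 0.010 over all genes. The largest changes were those of Cd82 and Cd9, which fell by 34.6% and 31.3% of the PBS level. The libraries of both groups did not overlap for 9 of 10 members, against 65.9% of all genes tested.

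Against PBS, MCF10A EVs gave 4 members that fell (Cd9, Cd81, Cd82 and Flot1), 1 that rose (Cd63) and 5 that were not called. Among all genes 31.7% were called, 14.6% lower and 17.1% higher. Of the 10104 genes averaging 5 or more CPM, 4846 were called. The members' median log2 change was -0.0092, against 8.14e-05 over all genes, and libraries did not overlap for 6 of 10 members, against 64.2% of all genes. Both EV comparisons use the same 2 PBS libraries, so their values stand side by side and are not independent.

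Between the EV donors, MDA-MB-231 against MCF10A, 4 members fell (Cd9, Cd63, Cd81 and Tsg101), 1 rose (Flot1) and 5 were not called, where 16.9% of all genes were called, 10.1% lower and 6.84% higher. Of the 10104 genes averaging 5 or more CPM, 1650 were lower and 1164 higher. The share of called genes that were higher was 40.4% in the main fit, and 61.7% with library totals and 50.7% with quantile scaling. The members' median log2 change was -0.10, against -0.00063 over all genes, and 9 of 10 members did not overlap, against 56.0% of all genes.

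**Figure D1:**
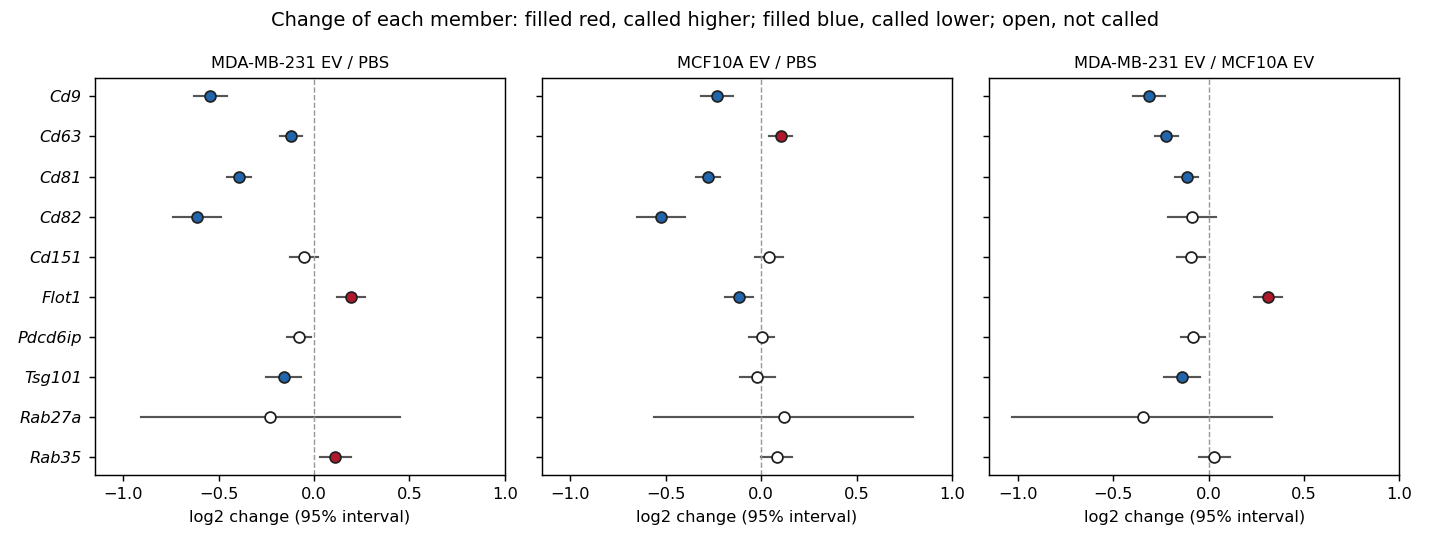
Log2 change of each of the 10 transcripts in the 3 comparisons, fitted by limma on 2 libraries a group; dots are the fitted changes and lines their 95% intervals, filled where called at an adjusted p under 0.05. Cd9, Cd81 and Cd82 lie left of 0 in both comparisons with PBS, Flot1 lies right of 0 with MDA-MB-231 EVs and left of 0 with MCF10A EVs, and the interval of Rab27a is the widest of the 10 in all 3 panels.

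Cd9, on chromosome 6, encodes a surface tetraspanin known for its part in sperm-egg fusion and as an EV marker. It had 2795 and 2728 normalised reads with MDA-MB-231 EVs, 3470 and 3384 with MCF10A EVs, and 4196 and 3856 with PBS. The 3 groups did not overlap, with the MDA-MB-231 EV libraries lowest and the PBS libraries highest. Cd9 fell 1.46-fold with MDA-MB-231 EVs against PBS (log2 -0.54, SE 0.040, limma adjusted p = 6.34e-08). With MCF10A EVs against PBS it fell 1.17-fold (log2 -0.23, limma adjusted p = 0.000389). The direct comparison of MDA-MB-231 with MCF10A EVs gave a fall of 1.24-fold (log2 -0.31, limma adjusted p = 6.56e-05). Without the mean-variance trend in limma, the call for MCF10A EVs against PBS was lost (adjusted p = 0.0688, in a range of 6.23e-06 to 0.0688 over 18 alternatives), as was that between the EVs (0.0834, in a range of 3.05e-07 to 0.0834).

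Cd81, on chromosome 7, encodes a widely expressed cell-surface tetraspanin that is commonly used as a marker of exosomes. It had 7903 and 7817 normalised reads with MDA-MB-231 EVs, 8543 and 8481 with MCF10A EVs, and 10535 and 10109 with PBS. All 4 EV libraries lay below both PBS libraries, and the MDA-MB-231 EV libraries lay below the MCF10A EV libraries. Cd81 fell 1.31-fold with MDA-MB-231 EVs (log2 -0.39, SE 0.029, limma adjusted p = 6.47e-08) and 1.21-fold with MCF10A EVs (log2 -0.28, SE 0.029, limma adjusted p = 4.27e-06), each against PBS. MDA-MB-231 EVs against MCF10A EVs gave a smaller fall of 1.08-fold (log2 -0.12, limma adjusted p = 0.0123). That last call was lost without MCF10A EV replicate 1 (adjusted p = 0.113) or 2 (0.0775), and without MDA-MB-231 EV replicate 1 (0.0875) or 2 (0.139). It was also lost with library totals (0.0698) and without the trend (0.194), in a range of 0.00392 to 0.194 over 18 alternatives.

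Cd82, on chromosome 2, encodes a tetraspanin known as a suppressor of metastasis. It had 709 and 645 normalised reads with MDA-MB-231 EVs, 704 and 732 with MCF10A EVs, and 1054 and 1016 with PBS. All EV libraries lay below both PBS libraries, while the libraries of the 2 EV groups overlapped. Cd82 fell 1.53-fold with MDA-MB-231 EVs (log2 -0.61, SE 0.059, limma adjusted p = 9.97e-07) and 1.44-fold with MCF10A EVs (log2 -0.53, SE 0.059, limma adjusted p = 8.88e-06). Both calls were kept in all 18 alternatives run. Between MDA-MB-231 and MCF10A EVs the log2 difference was -0.086, with a 95% interval of -0.21 to 0.041, and was not called (limma adjusted p = 0.384).

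Cd63, on chromosome 10, encodes the tetraspanin of late endosomes and of the vesicles inside them. It had 9682 and 9490 normalised reads with MDA-MB-231 EVs, 11274 and 11080 with MCF10A EVs, and 10555 and 10285 with PBS. The groups did not overlap, and PBS lay between the EV groups. Cd63 fell 1.09-fold with MDA-MB-231 EVs against PBS (log2 -0.12, SE 0.028, limma adjusted p = 0.00314) and rose 1.07-fold with MCF10A EVs against PBS (log2 0.10, SE 0.028, limma adjusted p = 0.0114). MDA-MB-231 EVs against MCF10A EVs gave a fall of 1.17-fold (log2 -0.22, limma adjusted p = 5.57e-05). The call for MDA-MB-231 EVs against PBS was lost with library totals (adjusted p = 0.0959), quantile scaling (0.0935), no trend (0.0916) and without PBS replicate 1 (0.071), in a range of 0.000662 to 0.0959. That for MCF10A EVs against PBS was lost with no trend (0.142), without PBS replicate 2 (0.139) and without MCF10A EV replicate 1 (0.0948), in a range of 0.00112 to 0.142. That between the donors was lost in limma with no trend (adjusted p = 0.0725), in a range of 4.08e-09 to 0.0725.

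Cd151, on chromosome 7, encodes the partner of laminin-binding integrins. It had 3364 and 3282 normalised reads with MDA-MB-231 EVs, 3613 and 3478 with MCF10A EVs, and 3495 and 3399 with PBS. The MDA-MB-231 EV libraries were lowest, and the MCF10A EV and PBS libraries overlapped. No comparison was called by limma, with log2 changes of -0.053 for MDA-MB-231 EVs against PBS (95% interval -0.13 to 0.020), 0.040 for MCF10A EVs against PBS (-0.033 to 0.11) and -0.093 for MDA-MB-231 against MCF10A EVs (-0.17 to -0.020). The adjusted p were 0.266, 0.418 and 0.0795, and the last was 0.0468 with a filter of 5 CPM, in a range of 0.0468 to 0.382 over 18 alternatives.

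**Figure D2:**
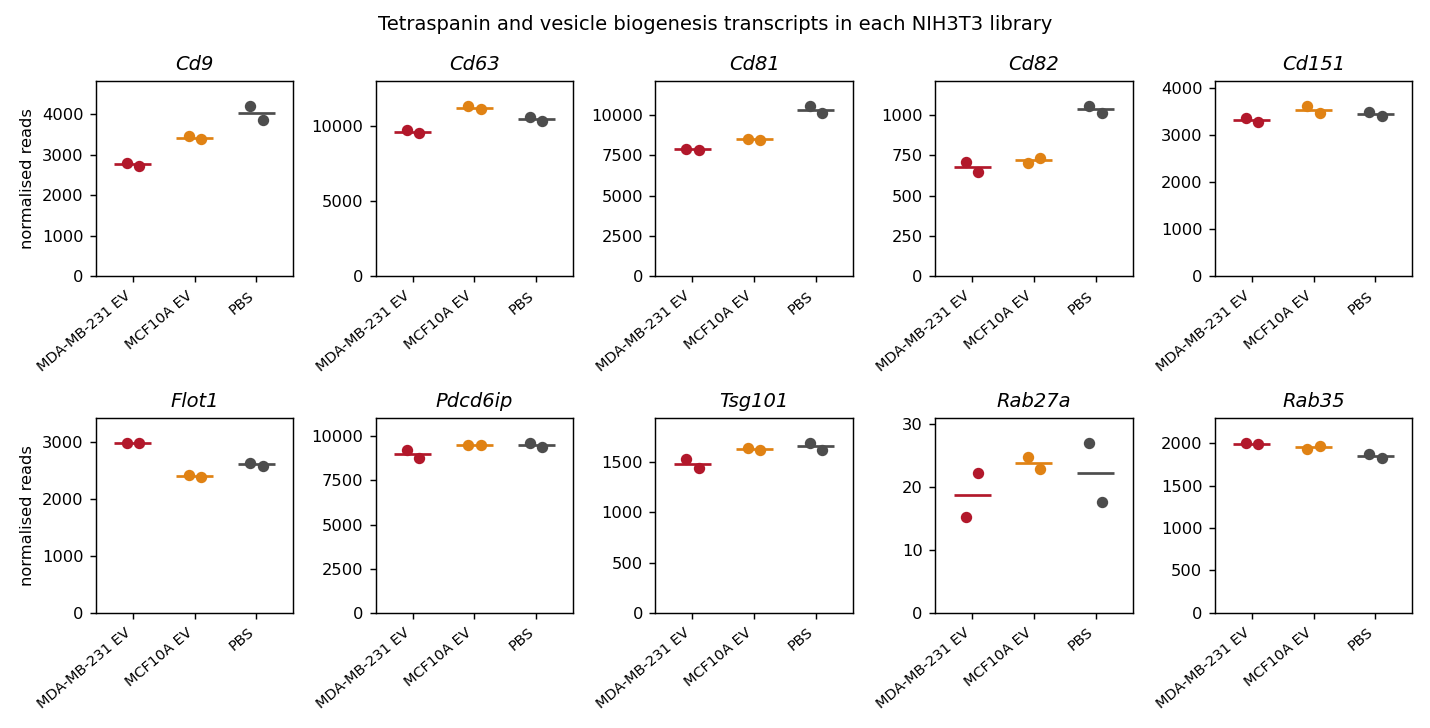
Normalised reads of each of the 10 transcripts by library, with MDA-MB-231 EVs, MCF10A EVs and PBS from left to right; dots are libraries, lines are means of 2, and each axis starts at 0. Cd9 averages 2761 with MDA-MB-231 EVs, 3427 with MCF10A EVs and 4026 with PBS, whereas Cd82 averages 677 with MDA-MB-231 EVs and 718 with MCF10A EVs, both below 1035 with PBS.

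Flot1, on chromosome 17, encodes flotillin-1, a scaffold of membrane microdomains. It had 2986 and 2985 normalised reads with MDA-MB-231 EVs, 2426 and 2383 with MCF10A EVs, and 2630 and 2591 with PBS. The MDA-MB-231 EV libraries were highest and the MCF10A EV libraries lowest, with no overlap among the groups. Flot1 rose 1.14-fold with MDA-MB-231 EVs against PBS (log2 0.19, SE 0.034, limma adjusted p = 0.000332) and fell 1.09-fold with MCF10A EVs against PBS (log2 -0.12, SE 0.034, limma adjusted p = 0.0145). MDA-MB-231 EVs against MCF10A EVs gave a rise of 1.24-fold (log2 0.31, limma adjusted p = 1.41e-05). The fall with MCF10A EVs was lost without PBS replicate 1 (adjusted p = 0.0986) or 2 (0.0578), without MCF10A EV replicate 2 (0.0905) and without the trend (0.0901), in a range of 0.00608 to 0.0986, whereas the other 2 calls were kept in all 18 alternatives run.

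Tsg101, on chromosome 7, encodes the ESCRT-I subunit that binds ubiquitinated cargo. It had 1532 and 1441 normalised reads with MDA-MB-231 EVs, 1647 and 1626 with MCF10A EVs, and 1692 and 1628 with PBS. The MDA-MB-231 EV libraries lay below all others, and the MCF10A EV and PBS libraries overlapped. Tsg101 fell 1.12-fold with MDA-MB-231 EVs against PBS (log2 -0.16, SE 0.044, limma adjusted p = 0.00985) and also fell against MCF10A EVs (log2 -0.14, SE 0.044, limma adjusted p = 0.0409). With MCF10A EVs against PBS the log2 change was -0.020, with a 95% interval of -0.11 to 0.073, and was not called (limma adjusted p = 0.775). The fall against PBS was lost with library totals (adjusted p = 0.0904), no trend (0.0951), without MDA-MB-231 EV replicate 2 (0.115) and without PBS replicate 1 (0.121), in a range of 0.00409 to 0.121. The call against MCF10A EVs was kept in 7 of 18 alternatives, with adjusted p of 0.0212 to 0.284. It was lost without each library in turn, with 0.0868 and 0.0861 for PBS replicates 1 and 2, 0.219 and 0.145 for MCF10A EV replicates 1 and 2, and 0.0665 and 0.284 for MDA-MB-231 EV replicates 1 and 2.

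Pdcd6ip, on chromosome 9, encodes ALIX, which bridges ESCRT-I and ESCRT-III and binds syntenin. It had 9238 and 8773 normalised reads with MDA-MB-231 EVs, 9524 and 9527 with MCF10A EVs, and 9618 and 9407 with PBS. Both MDA-MB-231 EV libraries were below the rest, and the MCF10A EV and PBS libraries overlapped. The log2 changes were -0.079 for MDA-MB-231 EVs against PBS (95% interval -0.14 to -0.015), 0.0021 for MCF10A EVs against PBS (-0.063 to 0.067) and -0.081 for MDA-MB-231 against MCF10A EVs (-0.15 to -0.017). None was called by limma (adjusted p = 0.0552, 0.975 and 0.0834). The first was called with a filter of 5 CPM (adjusted p = 0.0292), TMM (0.0375), edgeR (0.0252) and a replicate block (0.0413). It was also called without MDA-MB-231 EV replicate 1. The third was called with the filter of 5 CPM (adjusted p = 0.044). Their ranges were 0.0252 to 0.731 and 0.044 to 0.404.

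Rab27a, on chromosome 9, encodes a GTPase that docks multivesicular endosomes at the plasma membrane. Its libraries held 15 and 21 reads with MDA-MB-231 EVs, 23 and 27 with MCF10A EVs, and 25 and 19 with PBS, which made 15.3 and 22.3 normalised reads with MDA-MB-231 EVs, 24.7 and 22.8 with MCF10A EVs, and 26.9 and 17.6 with PBS. The PBS libraries spanned both MCF10A EV libraries and 1 of the MDA-MB-231 EV libraries. No comparison was called (limma adjusted p = 0.635 for MDA-MB-231 EVs against PBS, 0.826 for MCF10A EVs against PBS and 0.531 between the donors). The 95% intervals of the log2 changes ran from -0.91 to 0.45, -0.56 to 0.80 and -1.03 to 0.33, for the same 3 comparisons, the widest of the 10 members in each.

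Rab35, on chromosome 5, encodes a GTPase of recycling endosomes that also takes part in exosome release. It had 2003 and 1992 normalised reads with MDA-MB-231 EVs, 1938 and 1973 with MCF10A EVs, and 1872 and 1825 with PBS. Both EV groups lay above PBS, with the MDA-MB-231 EV libraries highest. Rab35 rose 1.08-fold with MDA-MB-231 EVs against PBS (log2 0.11, SE 0.037, limma adjusted p = 0.0307). The log2 change with MCF10A EVs against PBS was 0.081 (95% interval 0.00084 to 0.16, limma adjusted p = 0.12), and between MDA-MB-231 and MCF10A EVs 0.031 (-0.049 to 0.11, limma adjusted p = 0.656), neither of them called. The call with MDA-MB-231 EVs was lost with DESeq2 (adjusted p = 0.2), no trend (0.0978), without PBS replicate 1 (0.0634) or 2 (0.158) and without MDA-MB-231 EV replicate 1 (0.103) or 2 (0.0859), in a range of 0.00128 to 0.2. With library totals the MCF10A EV difference was called (adjusted p = 0.0433, in a range of 0.0433 to 0.445).

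Per kilobase of the median annotated coding transcript, Cd63 had the highest level with PBS, 9802 ± 180 normalised reads per kilobase (SD, n = 2), followed by Cd81 at 6733 ± 196 and Cd9 at 3278 ± 196. Pdcd6ip at 2074 ± 32.6 and Cd151 at 2018 ± 39.5 came next, then Flot1 at 1627 ± 17.2, Tsg101 at 852 ± 23.3, Rab35 at 656 ± 11.6 and Cd82 at 620 ± 16.0. Rab27a was lowest, at 6.11 ± 1.61 with MDA-MB-231 EVs, 7.72 ± 0.433 with MCF10A EVs and 7.25 ± 2.15 with PBS. With this length the rank order was the same in all 3 groups. Among neighbours in it, the libraries of Pdcd6ip and Cd151 overlapped in both EV groups and not with PBS. With the longest transcript as the length, Pdcd6ip came behind Cd151 in all groups (1513 against 1782 with MDA-MB-231 EVs, 1601 against 1901 with MCF10A EVs and 1598 against 1848 with PBS). On that scale it also came behind Flot1 with MDA-MB-231 EVs, at 1636, and not with MCF10A EVs, at 1318, or PBS, at 1430, so the order then differed between groups. No other neighbours overlapped. With MDA-MB-231 EVs, Cd9 at 2249 ± 38.9 per kilobase came nearer to Pdcd6ip at 1963 ± 71.7, and Cd82 was at 405 ± 26.8. Rab27b, the paralog of Rab27a and picked here after its values were seen, stood at 79.6 ± 3.93 per kilobase with MDA-MB-231 EVs, 75.4 ± 0.339 with MCF10A EVs and 85.3 ± 13.2 with PBS, above Rab27a in every group, and was not called in any comparison.

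**Figure D3:**
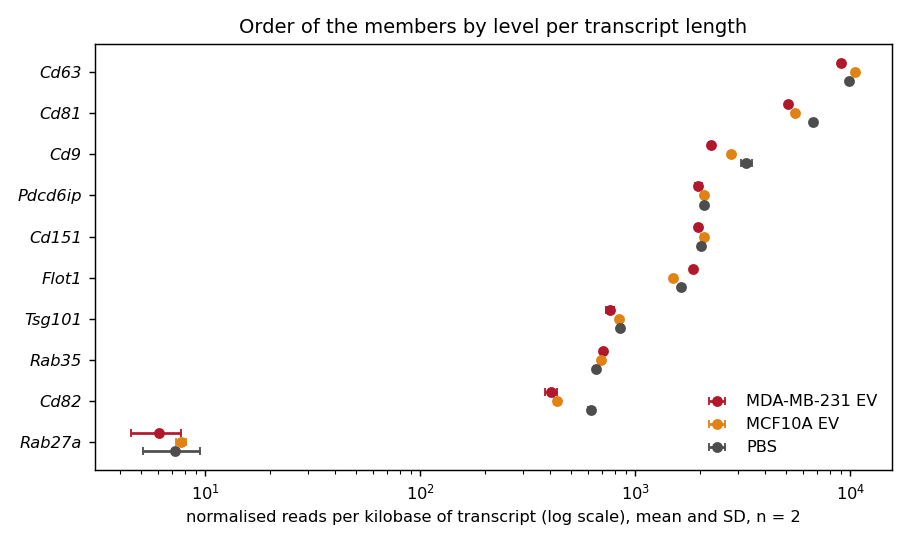
Level of each of the 10 transcripts in normalised reads per kilobase of transcript (log axis), as mean and SD of 2 libraries with MDA-MB-231 EVs, MCF10A EVs and PBS. Cd63 is at the top and Rab27a at the bottom in all 3 groups, and between them Cd82 shows the widest gap between the EV groups (405 with MDA-MB-231 EVs, 430 with MCF10A EVs) and PBS (620).

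The annotation places a transcript on the opposite strand over parts of Cd9, Cd81, Cd82, Cd151 and Tsg101, and a pseudogene named after Cd9, Cd63 and Tsg101 elsewhere. It also places a processed pseudogene on the same strand as Rab27a, and a miRNA gene on the same strand as Cd82 and as Rab35. Which strand was counted and how shared reads were assigned is not given in the sources used here, so the levels of these genes are uncertain to that extent.

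The other genes of the route were read from 10 lists with 140 entries, of which 138 were in the table and 128 were tested. The share called over all genes depends on their levels, so the all-gene shares given beside the lists are not matched for level. Among the 10104 genes averaging 5 or more CPM, 5274 were called with MDA-MB-231 EVs and 4846 with MCF10A EVs, each against PBS. Between the EVs 1650 of them were lower and 1164 higher. In the lists, with MDA-MB-231 EVs against PBS 51 fell and 9 rose (46.9% called, against 34.8% of all genes). Their median log2 change was -0.094, and -0.028 with library totals. The 51 became 28 without MDA-MB-231 EV replicate 2 and 32 without PBS replicate 2, the 9 became 5 without PBS replicate 1, and library totals gave 35 lower and 17 higher. With MCF10A EVs against PBS 37 fell and 9 rose (35.9%, against 31.7%), with a median of -0.075. Here the 37 became 18 without PBS replicate 1, 24 without PBS replicate 2 and 23 without MCF10A EV replicate 2, and the 9 became 5 without PBS replicate 1 or 2 or MCF10A EV replicate 1. With MDA-MB-231 EVs against MCF10A EVs 19 fell and 6 rose (19.5%, against 16.9%), with a median of -0.0080 that was 0.035 with library totals and 0.011 with quantile scaling. Library totals turned the balance of these calls, to 13 lower and 17 higher. The 19 became 6 without MDA-MB-231 EV replicate 2, 10 without MDA-MB-231 EV replicate 1 or MCF10A EV replicate 1, and 11 without MCF10A EV replicate 2. The 6 became 2 without either MDA-MB-231 EV library and 3 without PBS replicate 2 or either MCF10A EV library.

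**Figure D4:**
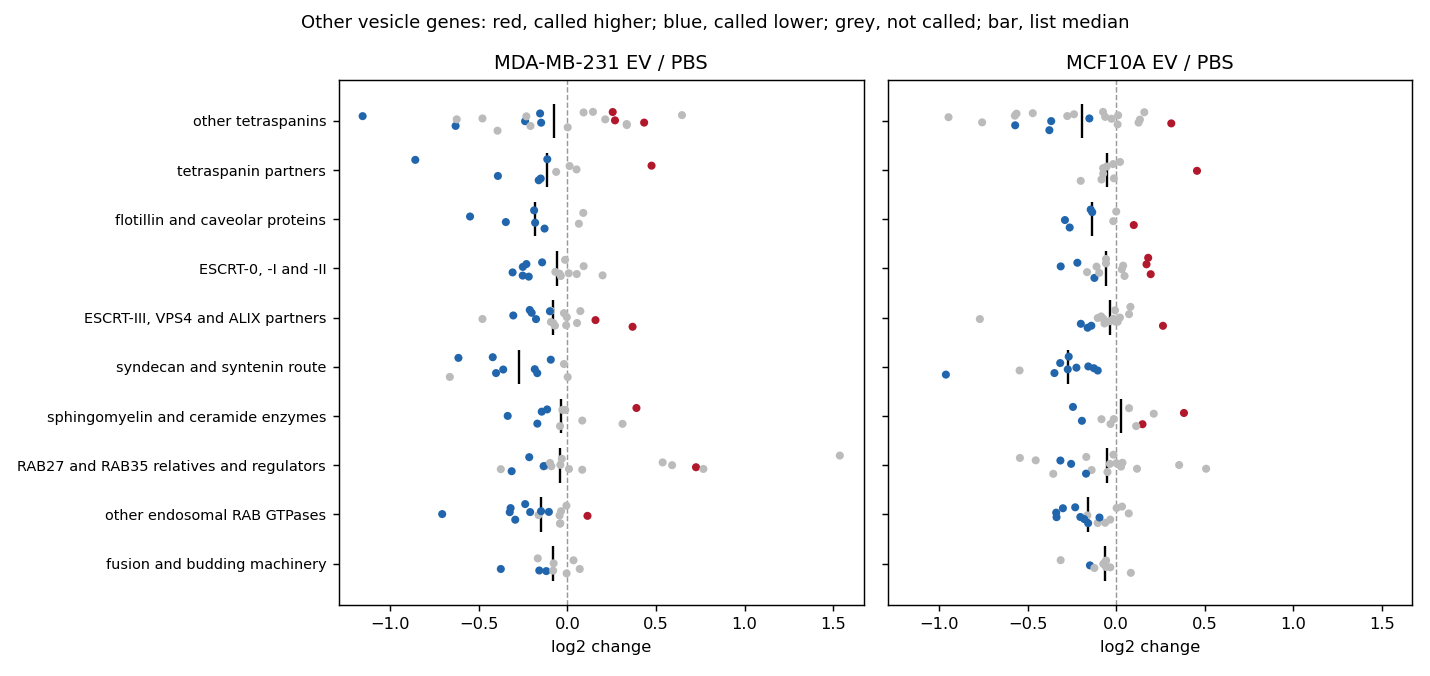
Log2 changes of the 128 tested genes of 10 vesicle lists, with MDA-MB-231 EVs against PBS at left and MCF10A EVs against PBS at right; dots are genes, coloured where called by limma, and bars are list medians. The syndecan and syntenin list has no gene called higher in either panel, and 7 and 9 of its 10 genes called lower. Of all genes tested, not matched for level, 16.9% and 14.6% were called lower.

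Other tetraspanins moved both ways, with 5 of 20 tested lower and 3 higher with MDA-MB-231 EVs and 4 lower and 1 higher with MCF10A EVs, each against PBS. That was 40% and 25% called, against 34.8% and 31.7% of all genes. Cd53, a tetraspanin known from leukocytes, fell to 192 ± 27.6 normalised reads with MDA-MB-231 EVs and 328 ± 1.2 with MCF10A EVs, against 426 ± 0.511 with PBS, in the order of the leukocyte marker sums given above, and their part in it was not tested. Tspan12, a Norrin receptor partner, fell to 734 ± 6.59 with MDA-MB-231 EVs and 765 ± 14.2 with MCF10A EVs, against 1138 ± 14.2 with PBS. Tspan4, known from migrasomes, rose to 2242 ± 10.5 with MDA-MB-231 EVs and 2060 ± 41.0 with MCF10A EVs, against 1662 ± 69.0 with PBS. Of 9 tetraspanin partners, 5 fell and 1 rose with MDA-MB-231 EVs (66.7% called) and 0 fell and 1 rose with MCF10A EVs (11.1%). Hbegf, a growth factor precursor that binds CD9, was at 241 ± 11.7, 381 ± 4.03 and 438 ± 8.80 with MDA-MB-231 EVs, MCF10A EVs and PBS, and Cd44, a hyaluronan receptor, at 10020 ± 139, 13038 ± 325 and 13158 ± 85.2 with the same groups, both called lower with MDA-MB-231 EVs against PBS. Itga3, a laminin-binding integrin chain, was higher with both EVs, at 511 ± 11.1 with MDA-MB-231 EVs and 504 ± 3.60 with MCF10A EVs, against 368 ± 15.6 with PBS. The 5 other tetraspanins lower with MDA-MB-231 EVs became 3 without replicate 2 of that group, and the 3 higher became 1 without MDA-MB-231 EV replicate 1 or PBS replicate 1. Partners lower with MDA-MB-231 EVs became 2 without replicate 2 of that group and 3 without PBS replicate 1 or with library totals, which gave 3 higher. For MCF10A EVs edgeR called 3 partners lower, against 0 with limma.

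Of 7 flotillin and caveolar genes 5 fell with MDA-MB-231 EVs, and 4 fell and 1 rose with MCF10A EVs. That was 71.4% called in each, against 34.8% and 31.7% of all genes. Cav1, the caveolar coat protein, fell to 27874 ± 212 with MDA-MB-231 EVs and 33397 ± 915 with MCF10A EVs, against 40821 ± 494 with PBS. Stom, encoding stomatin, was at 6539 ± 166 with MDA-MB-231 EVs, where it fell, and 8915 ± 221 with MCF10A EVs, where it was called higher, against 8324 ± 204 with PBS. That call of Stom with MCF10A EVs was lost without each of the 6 libraries in turn. Cav2 fell with both EVs, to 5930 ± 111 with MDA-MB-231 EVs and 5632 ± 210 with MCF10A EVs, against 6758 ± 157 with PBS. The 5 falls of this list with MDA-MB-231 EVs became 3 without any 1 of the PBS or MDA-MB-231 EV libraries, and the 4 with MCF10A EVs became 2 without PBS replicate 1 or MCF10A EV replicate 1. Of 14 genes of ESCRT-0, -I and -II, the complexes of Tsg101, 6 fell and 0 rose with MDA-MB-231 EVs. With MCF10A EVs 3 fell and 3 rose, and 42.9% were called in each comparison. Among them Vps37c and Hgs were lower with both (log2 -0.31 and -0.23 with MDA-MB-231 EVs). Mvb12a was lower with both too (log2 -0.25 with MDA-MB-231 EVs, -0.31 with MCF10A EVs). The 3 rises with MCF10A EVs became 0 without PBS replicate 1 and 1 without PBS replicate 2 or MCF10A EV replicate 1. Of 17 genes of ESCRT-III and its ALIX and VPS4 partners, 5 fell and 2 rose with MDA-MB-231 EVs (41.2% called). With MCF10A EVs 3 fell and 1 rose (23.5%). Cep55, which recruits ALIX in cell division, rose by log2 0.37 with MDA-MB-231 EVs and 0.26 with MCF10A EVs, and Chmp5 fell by 0.31 and 0.16 in these comparisons. The second call of Chmp5 was lost without PBS replicate 2 (adjusted p = 0.0664) and without the trend (0.0546), in a range of 0.00169 to 0.0664. Falls in this list with MDA-MB-231 EVs became 2 without MDA-MB-231 EV replicate 2 and 3 without replicate 1 or PBS replicate 2, and the 2 rises became 1 without any 1 library other than PBS replicate 1. Those with MCF10A EVs became 0 without PBS replicate 2 and 1 without MCF10A EV replicate 2.

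In the route of syndecans, syntenin and ALIX, 7 of 10 genes fell with MDA-MB-231 EVs (70% called, against 34.8% of all genes). With MCF10A EVs 9 of 10 fell (90%, against 31.7%), and 0 rose with either. Sdc4 was at 3182 ± 35.04 with MDA-MB-231 EVs and 3306 ± 166 with MCF10A EVs, against 4209 ± 60.9 with PBS, and Sdc1 at 3423 ± 63.7 with MDA-MB-231 EVs and 3538 ± 200.2 with MCF10A EVs, against 4403 ± 97.2 with PBS. Without MDA-MB-231 EV replicate 1 or 2, 4 fell, and with MCF10A EVs 3 fell without PBS replicate 1 and 5 without MCF10A EV replicate 2. Of 10 sphingomyelin and ceramide enzymes 4 fell and 1 rose with MDA-MB-231 EVs (50% called) and 2 fell and 2 rose with MCF10A EVs (40%). Smpd4, a sphingomyelinase, rose by log2 0.39 with MDA-MB-231 EVs and 0.38 with MCF10A EVs, Sgms2 fell by 0.34 with MDA-MB-231 EVs and 0.24 with MCF10A EVs, and Sgms1 fell by 0.15 with MDA-MB-231 EVs and 0.19 with MCF10A EVs. The 4 falls with MDA-MB-231 EVs became 1 without MDA-MB-231 EV replicate 2 or PBS replicate 2, and 2 without MDA-MB-231 EV replicate 1 or PBS replicate 1. With MCF10A EVs the 2 falls became 1 without MCF10A EV replicate 1 or either PBS library, and the 2 rises became 1 without MCF10A EV replicate 1 or PBS replicate 2.

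Of 17 relatives and regulators of Rab27a and Rab35, 3 fell and 1 rose with MDA-MB-231 EVs (23.5% called). With MCF10A EVs 3 fell and 0 rose (17.6%). Both shares were below those of all genes, 34.8% and 31.7%, which are not matched for level. Means of the 17 over the 6 libraries ran from 0.698 to 7419 normalised reads, and several had few reads. Whether their low levels lowered the shares was not tested. Acap2, a RAB35 effector, fell by log2 0.32 in both, and Dennd1a, an exchange factor of RAB35, by 0.22 with MDA-MB-231 EVs and 0.26 with MCF10A EVs. Of 15 other endosomal RAB genes, counted with genes of RAB11-interacting proteins, 8 fell and 1 rose with MDA-MB-231 EVs (60% called). With MCF10A EVs 8 fell and 0 rose (53.3%). Rab11fip1, which encodes a partner of RAB11 and not a RAB, was lower with both (log2 -0.71 with MDA-MB-231 EVs, -0.34 with MCF10A EVs). So was Rab9 (-0.33 with MDA-MB-231 EVs, -0.34 with MCF10A EVs). In the fusion and budding list 3 of 9 fell with MDA-MB-231 EVs (33.3% called), among them Snap23 (log2 -0.38) and Ykt6 (-0.12). With MCF10A EVs 1 of 9, Snap23 (-0.15), was called lower (11.1%), and 0 rose in either. The call of Snap23 with MCF10A EVs was kept in 6 of 18 alternatives, with adjusted p up to 0.315, and was lost without each library in turn. Ykt6 with MDA-MB-231 EVs kept its call in 13 of 18, and lost it without PBS replicate 1 (adjusted p = 0.0863) or 2 (0.0771), without MDA-MB-231 EV replicate 2 (0.0929), with library totals (0.216) and without the trend (0.0976). The 3 falls of its list became 1 without MDA-MB-231 EV replicate 2 or PBS replicate 2. Among the other endosomal RAB genes, the 8 falls with MDA-MB-231 EVs became 5 without MDA-MB-231 EV replicate 2 or either PBS library, and the 1 rise was then lost. The 8 with MCF10A EVs became 3 without PBS replicate 1, 5 without MCF10A EV replicate 1 and 4 without replicate 2. The 1 rise among relatives of Rab27a and Rab35 was lost without any 1 library other than MDA-MB-231 EV replicate 1.

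Between MDA-MB-231 and MCF10A EVs, the genes named by their p in this comparison and called lower were Cd53 (log2 -0.78), Hbegf (-0.66), Stom (-0.45), Cd44 (-0.38), Rab11fip1 (-0.37), Cav1 (-0.26), Madd (-0.24), Snap23 (-0.23), Cers2 (-0.19), Snf8 (-0.18), Stam2 (-0.17), Micall1 (-0.16), Tspan31 (-0.16), Chmp5 (-0.14) and Asah1 (-0.14). Those called higher were Sdc3 (0.28), Rab31 (0.21) and Pld2 (0.21). Hgs, named above for another comparison, was also called lower here, and lost that call without MCF10A EV replicate 1 or either MDA-MB-231 EV library. Hbegf, Stom and Cd44 kept their calls in all 18 alternatives, and Cd53, Rab11fip1, Cav1 and Rab31 lost theirs in 1, limma without the trend. Calls were kept in 16 of 18 for Cers2, lost without MDA-MB-231 EV replicate 2 (adjusted p = 0.0632) and without the trend. They were kept in 14 for Snap23 and Tspan31, 13 for Stam2, Micall1 and Pld2, 12 for Madd, 11 for Snf8 and Chmp5, 10 for Sdc3 and 7 for Asah1. Without MDA-MB-231 EV replicate 2 none of these 10 was called, with adjusted p of 0.0871 to 0.3. Without replicate 1 of that group Stam2 (0.0813), Snf8 (0.102), Chmp5 (0.0951), Micall1 (0.112), Madd (0.137), Asah1 (0.144) and Sdc3 (0.185) were not called. Calls lost without MCF10A EV replicate 1 were those of Stam2 (0.0712), Snf8 (0.129), Chmp5 (0.104), Micall1 (0.139), Madd (0.145), Tspan31 (0.066), Asah1 (0.262), Pld2 (0.0659) and Sdc3 (0.204). MCF10A EV replicate 2 decided those of Stam2 (0.0654), Snf8 (0.0845), Chmp5 (0.103), Madd (0.0658), Snap23 (0.127), Tspan31 (0.0712), Asah1 (0.0889) and Pld2 (0.11). Sdc3 and Asah1 were also lost without PBS replicate 1 (0.0699 for Sdc3, 0.05 for Asah1) or 2 (0.0695 for Sdc3, 0.0503 for Asah1).

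The genes whose log2 levels were most like those of 4 members over the 6 libraries were named from 10006 candidates. They were Edem3, Tpd52 and Lpin3 for Cd9 (Pearson r 0.9992, 0.9983 and 0.9969), Ptp4a2, Cux1 and Dap for Cd82 (0.9986, 0.9982 and 0.9978), Mzt1, Fam122b and Elf2 for Flot1 (0.9939, 0.9920 and 0.9918), and Etaa1, Nr1h5 and C2cd5 for Rab35 (0.9979, 0.9970 and 0.9966). The 6 libraries form 3 pairs and share their normalisation, and with this many candidates the r values are a description.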

How the data were processed

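RNA-seq libraries, 2 per group, were made with a stranded mRNA kit, per the labels' protocols. TopHat2, edgeR and hg19 are named in the submitters' processing notes, yet the deposited table lists mouse genes with mouse chromosomes, so the build is unknown and measured genes are placed by chromosome only. The read counter is not given in the sources used here, nor are the strand setting and annotation. The deposited values are a normalised signal, edgeR pseudo-counts, which are reads that the authors adjusted to a common library size. Inverting that step (common dispersion 0.000591) gave whole reads for 122850 of 122850 values, 100%, within a relative 1e-06. The recovered counts summed to 22451173 to 29315530 a library. A floor of 3 reads, the limit that a count of 0 allows, was 0.102 to 0.134 CPM and covers counting error only.

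limma 3.58.1 (lmFit, eBayes with trend, R 4.3.3) was run on log2(value + 1), on which scale fold changes are given. A gene was tested if 2 or more libraries had 1 or more normalised reads (15025 genes), all 6 libraries entered 1 fit (3 residual and 11.5 prior degrees of freedom), and calls are at a Benjamini-Hochberg adjusted p under 0.05 over all genes. The design had foreseen counts or normalised values, and its branch for the second was used. On the recovered counts edgeR 4.0.16 (quasi-likelihood, TMM, 12352 genes) called 5554 genes with MDA-MB-231 EVs and 5160 with MCF10A EVs, each against PBS, and 2987 between the EVs. Other alternatives were DESeq2 1.42.0, other scalings, pseudocounts and filters, no trend, the 2 compared groups alone, leaving out each library and a replicate block.

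The members and lists were chosen with earlier results of these data known. From each list the called genes with the 2 smallest p per comparison are named, 35 in all, as are the 3 genes most like Cd9, Cd82, Flot1 and Rab35 among those that averaged 100 or more normalised reads. Rab27b was added after its values were seen. Lengths are from GENCODE vM21 and promoter windows from RefSeq.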

Additional observations from a re-analysis of the deposited data

Results flagged for a closer look

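Cd63 and Flot1 were called in opposite directions against PBS in the 2 EV groups, and the direct comparison of the EV groups was called. Cd63 averaged 9586 ± 136 normalised reads with MDA-MB-231 EVs and 11177 ± 137 with MCF10A EVs (SD, n = 2 each), a log2 difference of -0.22 (limma adjusted p = 5.57e-05), lower in both MDA-MB-231 EV libraries. Flot1 averaged 2986 ± 0.752 with MDA-MB-231 EVs and 2405 ± 30.01 with MCF10A EVs, a log2 difference of 0.31 (limma adjusted p = 1.41e-05), higher in both MDA-MB-231 EV libraries. The comparisons with PBS share both PBS libraries, and their calls for Cd63 and the fall of Flot1 with MCF10A EVs were lost in some alternatives.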

How the results depend on the processing

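Cd81 and Cd82 against PBS, Cd9 with MDA-MB-231 EVs, and Flot1 with MDA-MB-231 EVs against PBS and against MCF10A EVs kept their direction and call in all alternatives run. Genes called with MDA-MB-231 EVs against PBS were 5231, and 3346 without the limma trend, and members called were 7, and 4 without the trend. With MCF10A EVs against PBS, 4764 genes became 2231 and 5 members became 2 without the trend. With MDA-MB-231 against MCF10A EVs, 2541 genes became 378 without the trend and 1515 with DESeq2, and 5 members became 1 without the trend and 3 with library totals. The cause was not tested. Without 1 library, the 3 comparisons called 3476 to 4828, 2810 to 3983 and 721 to 1698 genes, and 4 to 7, 3 to 5 and 3 to 4 members; a lone library is then assumed to vary like the other groups. The lowest gene counts were those without MDA-MB-231 EV replicate 1, PBS replicate 1 and MDA-MB-231 EV replicate 2. Over all lists, genes called lower and higher with MDA-MB-231 EVs against PBS were 24 and 4 without the trend, 14 and 5 with MCF10A EVs against PBS, and 3 and 0 between the donors.

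Among members and named genes, signs turned only in uncalled values: Cd151 with MDA-MB-231 EVs against PBS (log2 0.013 with library totals), Rab27a in that comparison (0.064 without PBS replicate 1 and 0.029 without MDA-MB-231 EV replicate 1, -0.52 to 0.064 without any 1 library), Pdcd6ip with MCF10A EVs against PBS (-0.0050 with TMM, -0.0055 with edgeR, -0.010 with DESeq2, -0.014 without PBS replicate 2), Tsg101 in it (0.0027 with library totals, 0.0075 without PBS replicate 1, -0.048 to 0.0075 without any 1) and Rab27a in it (-0.18 without PBS replicate 2, -0.18 to 0.41 without any 1). Named genes other than members were followed only in the comparisons for which they were named. Library totals moved the median log2 change of all genes from 0.010 to 0.072 with MDA-MB-231 EVs against PBS. In that comparison the main log2 changes of Cd63 and Rab35 were -0.12 and 0.11. The all-gene median became 0.023 with MCF10A EVs against PBS and 0.040 between the EVs, also with library totals. Same-numbered libraries correlated at -0.011, 0.018 and 0.027 in their deviations from group means over 10104 genes. That shows no shared shift by replicate number, and cannot tell whether same-numbered libraries were handled together. With a replicate block 8, 5 and 5 members were called in the 3 comparisons. The added one was Pdcd6ip (limma adjusted p = 0.0413) with MDA-MB-231 EVs against PBS. Rab27a had 15 to 27 reads a library, the fewest of the members.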
